A study of Mus musculus with 12 samples.

Results

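The response of microglia to lipopolysaccharide (LPS) in wild-type mice was read from 6 of the 12 libraries of the series. Of these, 3 came from wild-type mice of the C57BL6/J strain (WT), and 3 from wild-type C57BL6/J mice that had been given LPS by injection 24 h before their microglia were collected (WT-LPS). All animals were 3 to 4 months old, and each library was made from the microglia of 1 animal, purified on Percoll density gradients, by a poly(A)-based protocol. The labels give no dose, route or sex, and they name no vehicle injection for the WT mice, so the injection and the LPS cannot be told apart. The other 6 libraries, from CPEB1 knockout mice, entered the estimate of the spread between animals and, where stated, a side-by-side value. Libraries are called by group and replicate number (WT 1, WT-LPS 3). Summed expected counts were 9.49, 5.02 and 5.40 M (mega) in WT 1, 2 and 3 and 12.9, 10.5 and 11.7 M in WT-LPS 1, 2 and 3, so the LPS libraries were the deeper ones.

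LPS, a glycolipid of the outer membrane of Gram-negative bacteria, is bound by CD14 and by the receptor pair TLR4 and MD-2. The adaptors MyD88 and TRIF then activate NF-kappaB, MAP kinases and interferon regulatory factors, which switch on cytokine, chemokine and interferon genes. Microglia, the resident macrophages of brain tissue, are known to lose part of their homeostatic genes during this response. By 24 h direct targets are mixed with the effects of secreted cytokines and of feedback inhibitors, and an injected dose also acts on the liver, vessels and adrenal axis of the whole animal.

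The preparations held microglia together with RNA of other cells. All 10 microglial markers were above 1 TPM (the transcript level scaled by transcript length and library total) in all 6 libraries, and their summed level ran from 5611 to 6377 TPM in WT and from 966 to 4457 TPM in WT-LPS. WT-LPS 1 stood apart. It had the lowest sum for microglia (966 TPM). The 12 neuronal markers summed to 3806, 1466 and 1880 TPM in WT 1, 2 and 3 and to 6262, 2479 and 3218 TPM in WT-LPS 1, 2 and 3, so that replicate 1 was highest in both groups and the sum was higher after LPS for each replicate number. Of these markers 2 rose and 0 fell, and 5 rose with the replicate number as a block. The number of neuronal markers that rose was 1 without WT 2, WT 3 or WT-LPS 1 and 6 without WT 1. Sums of the 7 choroid plexus and ependyma markers were 4443 to 7786 TPM in WT and 1130 to 2307 TPM in WT-LPS, and those of the 4 erythroid markers 41663 to 66991 TPM and 6544 to 10887 TPM. The 8 monocyte markers summed to 47.9 to 68.7 TPM and 260 to 530 TPM, whereas the 10 neutrophil markers overlapped (1111 to 2738 TPM and 1487 to 3176 TPM). The 5 B cell markers summed to 25.3 to 45.2 TPM in WT and 8.25 to 15.25 TPM in WT-LPS (3 of 4 tested fell), with Pax5 at 0 in all WT-LPS libraries. The 9 T and NK cell markers summed to 22.2 to 45.0 TPM in WT and 39.4 to 53.9 TPM in WT-LPS (1 of 8 tested rose and 2 fell). Cd3d, Cd3e, Cd3g, Cd8a and Ncr1 were under 1 TPM in every WT-LPS library. The 10 astrocyte markers summed to 1238, 2284 and 1073 TPM in WT 1, 2 and 3 and to 2389, 2125 and 3619 TPM in WT-LPS 1, 2 and 3. Of these, 2 rose and 0 fell, and 1 to 4 rose when 1 library was left out. In WT-LPS 1 the astrocyte sum was above the microglial sum. Of 12 oligodendrocyte lineage markers 5 fell, and of 9 border-associated macrophage markers 4 fell. Fibroblast markers fell in 3 of 8 cases and rose in 1, and endothelial and mural markers fell in 2 of 14 and rose in 5. Over all genes tested 14.9% fell and 12.4% rose. In bulk RNA of this kind, fewer cells of a type and less RNA per cell cannot be told apart. What these other cells contribute to each result was not tested.

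**Figure D1:**
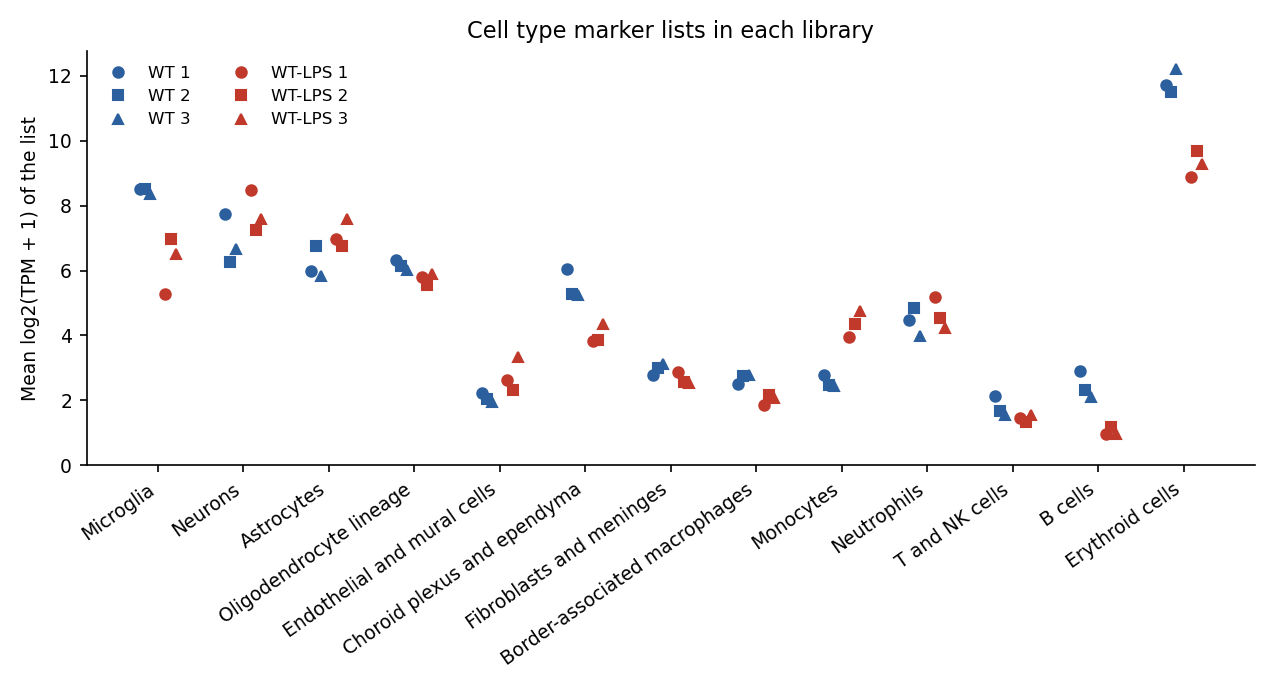
Mean log2(TPM + 1) of 13 lists of cell type markers in each WT library (blue) and each WT-LPS library (red), with circles, squares and triangles for replicates 1, 2 and 3. Microglial markers were lower in every WT-LPS library, lowest in WT-LPS 1 (5.26 against 8.35 to 8.52 in WT), and neuronal markers were highest in replicate 1 of both groups (7.73 and 8.49).

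Transcript levels differed after LPS in both directions. Of 15295 genes tested, 4185 (27.4%) passed a false discovery rate of 0.05 (edgeR quasi-likelihood test, Benjamini-Hochberg adjustment), of which 1900 rose (12.4% of genes tested) and 2285 fell (14.9%). The median log2 fold change was 1.15 among the genes that rose, -1.32 among those that fell and -0.03 over all genes. A change of at least 2-fold was seen for 1145 rises (7.49%) and 1667 falls (10.9%). Falls outnumbered rises at 4-fold and above (496 against 426), and the largest changes were mainly rises: 208 against 150 at 8-fold or more, 103 against 48 at 16-fold and 58 against 23 at 32-fold. Among the 11110 genes that did not pass, 5678 had an interval of 2 SE on either side that stayed within 2-fold. Scaled counts of the groups did not overlap for 2677 genes in the higher direction (17.5%) and 3068 in the lower (20.1%), and TPM values for 4194 (27.4%) and 1647 (10.8%). Without WT-LPS 1 the number past the threshold was 4072, with 2135 rises and 1937 falls. It was lowest, 2714, without WT-LPS 3.

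Measured as shares of the transcripts rather than as numbers of genes, the response looked different. Genes that rose held 3.97, 3.09 and 2.99% of all TPM in WT 1, 2 and 3 and 11.2, 14.4 and 15.1% in WT-LPS 1, 2 and 3. Genes that fell held 28.4, 35.4 and 36.9% in WT and 16.1, 17.5 and 15.8% in WT-LPS. The 100 most abundant genes of each library took 33.2, 47.2 and 40.9% in WT and 25.1, 33.1 and 29.1% in WT-LPS, and the haemoglobin genes 4.16 to 6.69% and 0.653 to 1.09%. On the TPM scale, whose values add to a fixed total, the median gene was higher by 0.28 (log2 scale, limma on log2(TPM + 1)). On that scale 4467 genes passed, 75.7% of them higher, against 45.4% with scaled counts.

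**Figure D2:**
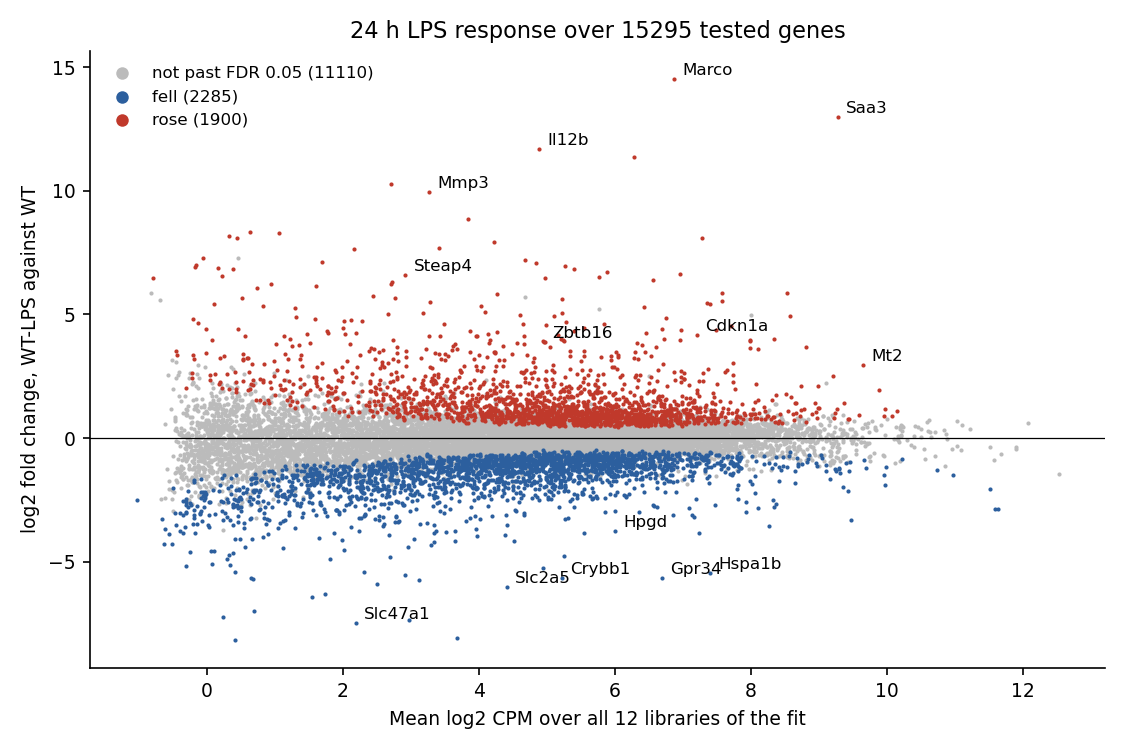
Log2 fold change of WT-LPS against WT (vertical axis) for 15295 genes against mean log2 CPM (counts scaled to a common library size) over the 12 libraries of the fit (horizontal axis), with genes that rose in red, genes that fell in blue and the other genes in grey. The highest points are Marco, Saa3 and Il12b, and Slc47a1 and Slc2a5 lie near the lower edge.

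Several genes went from no or next to no reads to clear expression. Il12b, which encodes the p40 chain shared by interleukins 12 and 23, had 0 TPM in each WT library and 8.11, 25.7 and 53.4 TPM in WT-LPS 1, 2 and 3 (1297 counts, at least 245-fold higher, taking 3 counts over the WT group as the floor). Mmp3, the matrix metalloprotease stromelysin-1, had 0 TPM in each WT library and 12.6, 15.8 and 9.23 TPM in WT-LPS (at least 75.3-fold higher). The scavenger receptor gene Marco was at 0 TPM in WT and at 275, 387 and 129 TPM in WT-LPS (at least 1783-fold higher). These 3 genes met a rule of choice, 0 WT counts in the 3 libraries together and at least 5 TPM in all 3 WT-LPS libraries. A predicted gene, Gm7367, was also at 0 TPM in WT and was at 27.9, 7.06 and 38 TPM in WT-LPS (at least 98.7-fold higher). Without WT 1, WT 2, WT 3 or WT-LPS 3 Gm7367 did not pass (adjusted p up to 0.0761).

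The acute-phase protein gene Saa3 was at 1.68, 0 and 0 TPM in WT and 5796, 11568 and 6286 TPM in WT-LPS, a ratio of 8150 with an exact 95% counting interval of 2789 to 39524. Irg1 (also known as Acod1), whose enzyme makes itaconate from a tricarboxylic acid cycle intermediate, was at 0, 0.10 and 0 TPM in WT and 71.2, 89.5 and 199.8 TPM in WT-LPS, a ratio of 3194 (573 to 126164). Trem1, an activating myeloid receptor, was at 0.17, 0 and 0.090 TPM in WT and 12, 45.1 and 34.3 TPM in WT-LPS (log2 fold change 7.92 ± 0.94, SE). Edn1, the precursor of the vasoconstrictor endothelin-1, was at 0.74, 0.34 and 0.99 TPM in WT and 45.4, 97.5 and 159 TPM in WT-LPS (6.85 ± 0.63), and Cfb, a protease of the alternative complement pathway, at 0.12, 0.29 and 0.41 TPM in WT and 23.3, 50.5 and 72.3 TPM in WT-LPS (7.22 ± 0.70). These 5 genes were picked from those whose TPM did not overlap between the groups. The neutrophil chemokine Cxcl1 was at 0, 0.35 and 0 TPM in WT and 31.1, 18 and 49.7 TPM in WT-LPS, a ratio of 263 (47.0 to 10417), and its neighbour Cxcl2 at 2.05, 2.62 and 2.50 TPM in WT and 152, 337 and 455 TPM in WT-LPS (6.71 ± 0.47). Serpina3f, a secreted protease inhibitor, was at 0, 0.13 and 0 TPM in WT and 6.33, 13.7 and 12.9 TPM in WT-LPS (ratio 242, 43.1 to 9567). Intervals and bounds cover counting error only.

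Ranked by certainty instead of size, the list was headed by a cell cycle inhibitor. Cdkn1a (p21), which stops cyclin-dependent kinases, was at 14, 14.2 and 16.6 TPM in WT and 315, 323 and 393 TPM in WT-LPS, with narrow spread in both groups (log2 fold change 4.16 ± 0.23, adjusted p = 9.96e-07). Steap4, a metalloreductase of iron and copper uptake, was at 0.050, 0.080 and 0.090 TPM in WT and 10.7, 7.72 and 9.93 TPM in WT-LPS (3 counts in WT, ratio 107, 36.3 to 518). Irak3, the inhibitory member of the kinase family downstream of Toll-like receptors, was at 1.08, 0.88 and 0.95 TPM in WT and 13.9, 24.6 and 26.6 TPM in WT-LPS (4.14 ± 0.35, adjusted p = 3.59e-05). Zbtb16 (PLZF), a zinc finger repressor, was at 1.33, 1.28 and 1.43 TPM in WT and 14.5, 29.2 and 30.9 TPM in WT-LPS (3.87 ± 0.34, adjusted p = 3.59e-05). The zinc and iron importer Slc39a14 was at 8.07, 4.75 and 8.08 TPM in WT and 40.7, 61.7 and 50.8 TPM in WT-LPS (2.56 ± 0.23, adjusted p = 3.82e-05), and Ctla2a, a cathepsin L inhibitor, at 12.9, 9.75 and 16.2 TPM in WT and 157, 97.6 and 236 TPM in WT-LPS (3.29 ± 0.28, adjusted p = 3.59e-05). In terms of transcripts gained, Mt2, Saa3 and Mt1 came first. The metallothionein Mt2, which binds zinc and copper, was at 528, 1431 and 635 TPM in WT and 8204, 8659 and 10692 TPM in WT-LPS, and Mt1 at 1253, 2889.9 and 1315 TPM in WT and 8494, 9205 and 10385 TPM in WT-LPS. Srgn, the proteoglycan of secretory granules, was at 75.3, 101 and 101 TPM in WT and 536, 2169 and 1595 TPM in WT-LPS (3.61 ± 0.62).

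The falls with the smallest p were led by a sugar transporter. Slc2a5, the fructose transporter of resting microglia, was at 60.3, 25.8 and 25.6 TPM in WT and 0.80, 0.64 and 0.65 TPM in WT-LPS (log2 fold change -6.04 ± 0.41, adjusted p = 4.26e-06). Kcne2, an accessory subunit of potassium channels, was at 29.2, 18.7 and 18.3 TPM in WT and 2.04, 2.10 and 2.05 TPM in WT-LPS (-3.75 ± 0.30, adjusted p = 2.24e-05). The sums of the choroid plexus and ependyma markers were 7786, 4789 and 4443 TPM in WT and 1130, 1680 and 2307 TPM in WT-LPS. Their order over the WT libraries was that of Kcne2, and also that of Slc2a5 and of Gal3st4 below. Over the WT-LPS libraries the sums increased while Kcne2 stayed level. The part of these cells in the fall of Kcne2 was not tested. Gal3st4, a sulfotransferase of the Golgi, was at 30.8, 20.6 and 19.2 TPM in WT and 1.67, 2.69 and 1.44 TPM in WT-LPS (-3.93 ± 0.34), and Camk1, a calcium-dependent kinase, at 189, 203 and 212 TPM in WT and 69.1, 60.8 and 63.8 TPM in WT-LPS (-2.01 ± 0.19). Pla2g15, the lysosomal phospholipase, was at 69.6, 54.5 and 60.5 TPM in WT and 14.4, 17.1 and 17.4 TPM in WT-LPS (-2.26 ± 0.21). These 5 genes were picked from those whose TPM did not overlap between the groups. Each passed with any 1 library left out. Crybb1, a crystallin transcribed in microglia, was at 231, 230.03 and 222 TPM in WT and 2.60, 7.67 and 7.05 TPM in WT-LPS (-5.66 ± 0.49), and Hspa1b, the inducible HSP70, at 108, 201 and 273 TPM in WT and 7.38, 4.58 and 5.58 TPM in WT-LPS (-5.45 ± 0.53). The multidrug extruder gene Slc47a1, among the largest falls, was at 1.62, 14.2 and 11.5 TPM in WT and 0.060, 0.13 and 0 TPM in WT-LPS (160-fold lower by counts, interval 54.2 to 782). Its WT libraries differed among themselves more than those of Slc2a5. Npas4, an activity-induced transcription factor of neurons, was at 10.5, 28.2 and 75.9 TPM in WT and 1.28, 1.20 and 1.38 TPM in WT-LPS (-5.26 ± 0.67), and Tnfrsf25, a death receptor of lymphocytes, at 5.81, 13.5 and 61.3 TPM in WT and 0.10, 0.78 and 1.03 TPM in WT-LPS (-5.75 ± 0.90), both with a wide range in WT. Capn3, a calpain protease, was at 40.1, 54.9 and 41.8 TPM in WT and 1.12, 2.61 and 2.88 TPM in WT-LPS (-4.75 ± 0.54).

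**Figure D3:**
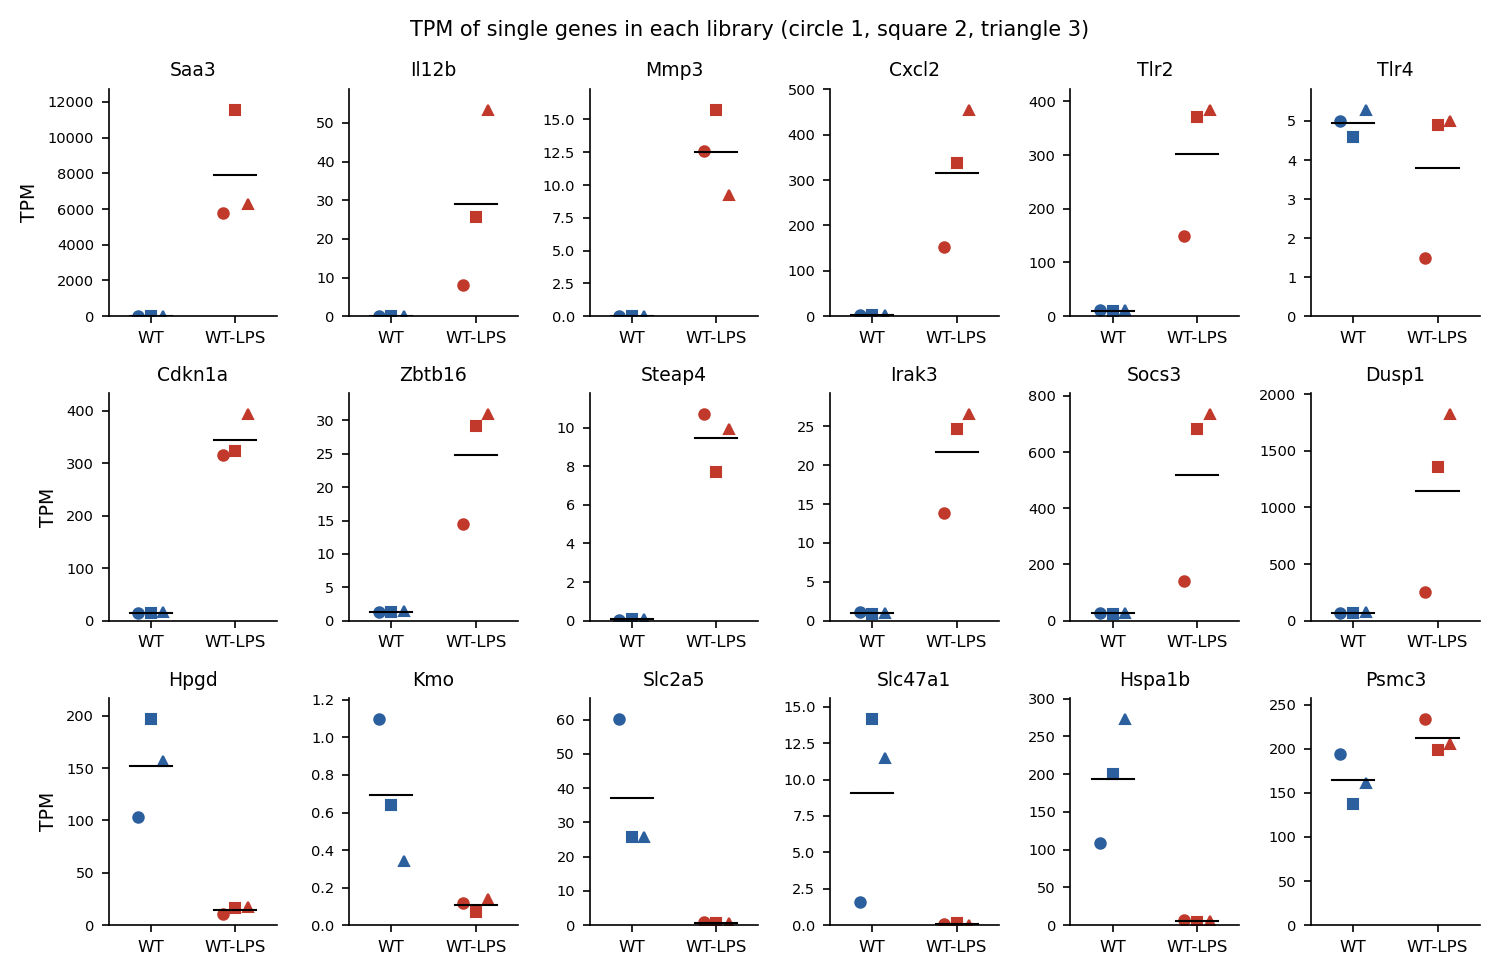
TPM (vertical axes, linear and from 0) of 18 genes in the WT libraries (blue) and WT-LPS libraries (red), with circles, squares and triangles for replicates 1, 2 and 3 and a bar at the mean of each group of 3. WT-LPS 1 is the lowest WT-LPS library for Cxcl2, Tlr2, Tlr4, Zbtb16, Irak3, Socs3 and Dusp1, whereas Cdkn1a is at 315, 323 and 393 TPM.

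The 250 bases before the annotated start were read for genes at both ends of the response, to show the letters on which the motif counts below rest. They are from RefSeq on GRCm38.p6 (mm10), 5′ to 3′ on the gene's strand, with motif matches in capitals. The motifs searched, on both strands, were GGGA and TTCC with a pair of any bases between them (NF-kappaB), GAAA and GAAA spaced likewise (interferon response), TGANTCA (AP-1), TGACGTCA (CRE), TTNCNNAA and TTGCGCAA (C/EBP), AAA and GGAAGT spaced likewise (PU.1) and, as a strict NF-kappaB form, the first motif with CT as the pair. They may overlap, and N is any base. The neighbours Cxcl1 (chr5:90890995-90891244, plus strand) and Cxcl2 (chr5:90903649-90903898, plus strand) both hold a pair of overlapping NF-kappaB matches, the first 71 and 97 bases before the start.
Cxcl1: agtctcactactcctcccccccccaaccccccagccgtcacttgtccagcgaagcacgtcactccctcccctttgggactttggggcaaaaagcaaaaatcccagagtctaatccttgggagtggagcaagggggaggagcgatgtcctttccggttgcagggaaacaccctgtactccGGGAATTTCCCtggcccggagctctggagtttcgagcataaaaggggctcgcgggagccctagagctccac
Cxcl2: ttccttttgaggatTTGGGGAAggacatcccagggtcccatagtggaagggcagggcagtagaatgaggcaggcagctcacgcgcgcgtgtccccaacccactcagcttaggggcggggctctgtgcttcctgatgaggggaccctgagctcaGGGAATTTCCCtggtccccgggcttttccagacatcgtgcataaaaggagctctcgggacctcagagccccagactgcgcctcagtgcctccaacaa
Saa3 (chr7:46715677-46715926, minus strand) holds 4 C/EBP matches and 1 interferon response match. Mmp3 (chr9:7445572-7445821, plus strand) holds 1 AP-1 match, 46 bases before the start, and 3 C/EBP matches.
Saa3: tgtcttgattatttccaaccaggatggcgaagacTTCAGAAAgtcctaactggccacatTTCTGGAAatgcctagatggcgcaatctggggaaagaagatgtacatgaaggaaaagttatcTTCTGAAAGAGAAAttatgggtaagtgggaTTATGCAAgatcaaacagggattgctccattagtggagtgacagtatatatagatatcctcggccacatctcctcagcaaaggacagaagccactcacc
Mmp3: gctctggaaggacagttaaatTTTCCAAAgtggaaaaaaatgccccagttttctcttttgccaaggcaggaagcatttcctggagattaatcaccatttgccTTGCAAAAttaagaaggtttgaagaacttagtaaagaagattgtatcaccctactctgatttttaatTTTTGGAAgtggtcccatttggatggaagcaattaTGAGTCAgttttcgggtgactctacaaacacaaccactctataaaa
In Slc2a5 (chr4:150119094-150119343, plus strand) and Crybb1 (chr5:112255570-112255819, plus strand), which fell, none of the motifs was found in these bases. These genes were picked from the largest changes, and the contrast between them does not hold for the others: Il12b and Il1r2, which rose, had no match either, and Tnfrsf17, Hspa1b, Prr32 and Fam167b, which fell, had at least 1.
Slc2a5: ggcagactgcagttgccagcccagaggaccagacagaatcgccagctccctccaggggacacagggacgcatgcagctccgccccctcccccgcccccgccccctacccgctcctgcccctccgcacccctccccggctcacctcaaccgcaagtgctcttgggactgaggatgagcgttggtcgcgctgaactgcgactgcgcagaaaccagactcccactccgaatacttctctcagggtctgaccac
Crybb1: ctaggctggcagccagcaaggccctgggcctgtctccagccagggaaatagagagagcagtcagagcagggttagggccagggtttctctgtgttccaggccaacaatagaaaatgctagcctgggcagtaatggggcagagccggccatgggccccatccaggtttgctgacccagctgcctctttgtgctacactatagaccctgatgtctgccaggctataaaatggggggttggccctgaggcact

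Over all genes, motif shares were counted in windows of 300 bases, 250 before to 50 after the start, which RefSeq gave for 11491 of the genes tested. The AP-1 letters TGANTCA were in 5.11% of these windows, in 7.04% of those of genes that rose, 4.11% of those that fell and 18.4% of the 147 that rose at least 8-fold. The interferon response letters were in 3.02%, 4.35%, 2.78% and 10.9% of the same 4 sets, and the NF-kappaB letters in 1.41%, 2.21%, 0.983% and 5.44%. The looser TTNCNNAA was in 31.3%, 31.4%, 32.2% and 63.9%, and in 39.6% of the 106 genes that fell at least 8-fold. TGACGTCA was in 3.09%, 2.76%, 3.07% and 2.72%. In the 106 genes that fell at least 8-fold, the AP-1 letters were in 4.72% and the interferon response letters in 3.77%. The NF-kappaB letters and TGACGTCA were each in 1.89% of these 106. The other 3 motifs were rarer, and at their shares a count of 0 among 147 windows tells little. The PU.1 letters were in 0.879%, 0.621% and 1.04% of the windows tested, risen and fallen, TTGCGCAA in 0.278%, 0.345% and 0.289% and the strict NF-kappaB form in 0.183%, 0.276% and 0.0578%, and each was in 0 of the 147. Among the windows of all 27025 RefSeq genes the shares were 7.92% for AP-1, 3.49% for the interferon response, 1.44% for NF-kappaB, 40.8% for TTNCNNAA, 1.85% for TGACGTCA, 0.799% for PU.1, 0.189% for TTGCGCAA and 0.148% for the strict NF-kappaB form. Windows of the 8-fold sets also held fewer G and C bases, 53.1% for rises and 53.9% for falls, than all windows tested (60.6%), and the part of base content in these shares was not tested.

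The response was next followed by role, from the sensors of LPS to the effectors, with the number of list members that passed set beside the shares of all genes that rose (12.4%) and fell (14.9%). These counts describe the lists, which were not tested as sets.

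**Figure D4:**
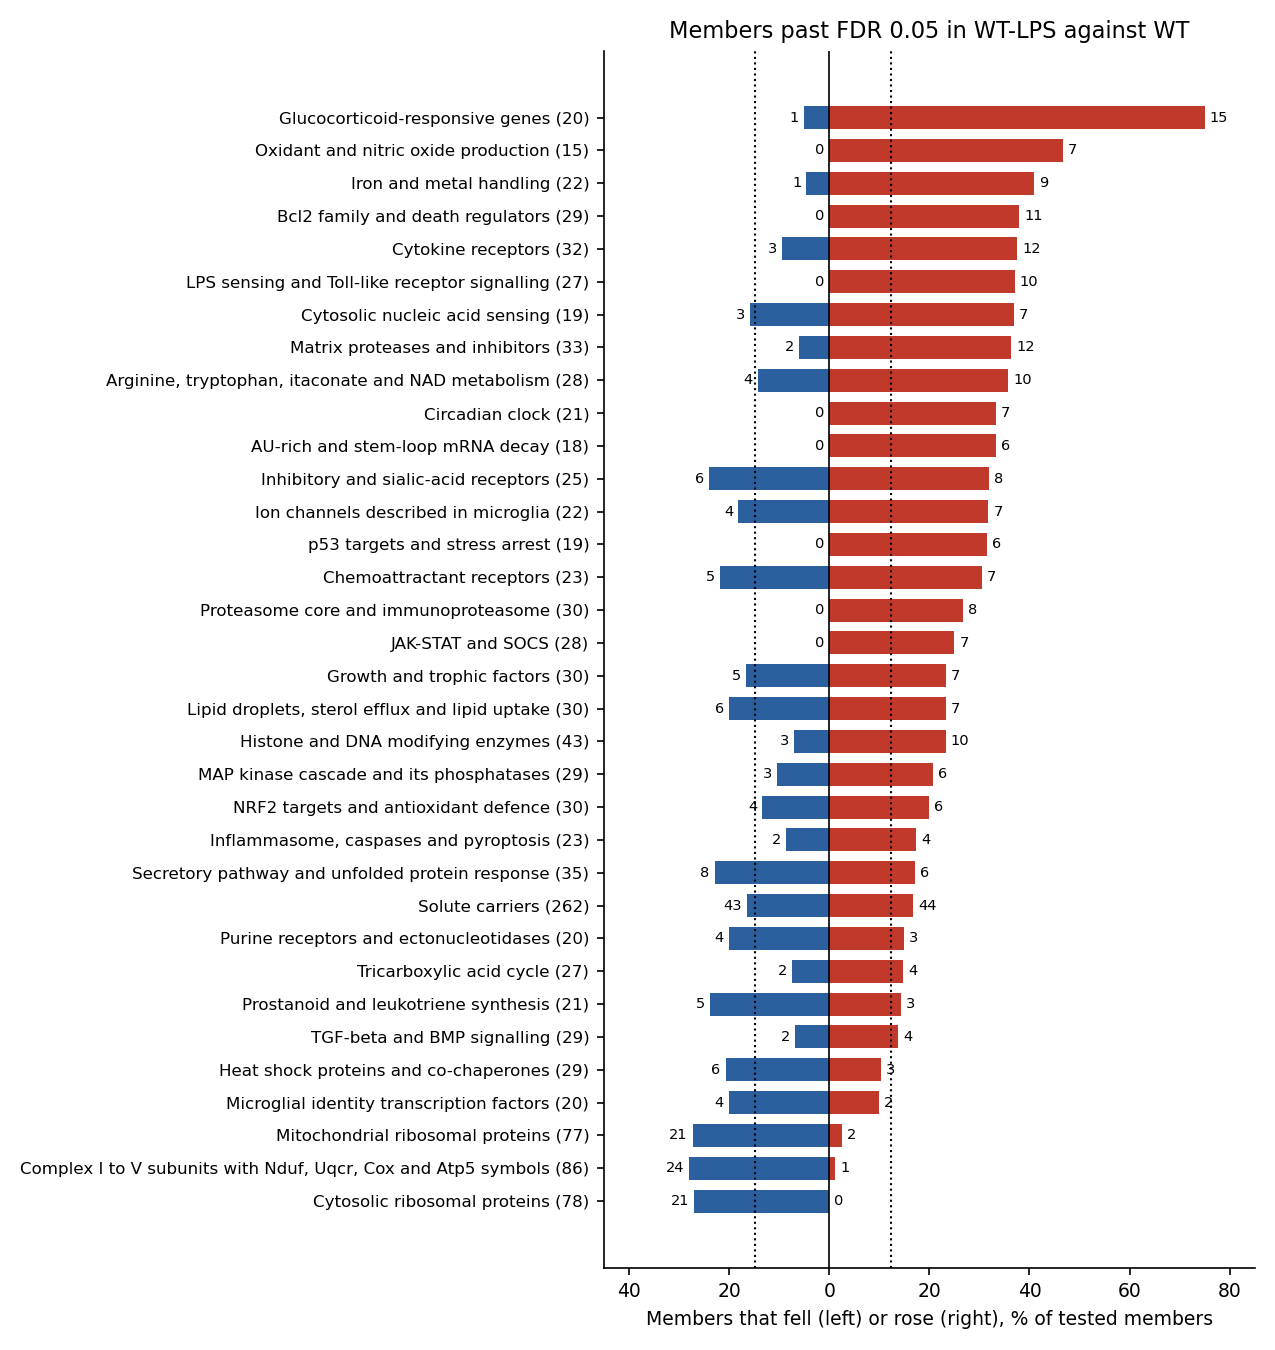
Share of the tested members of 34 gene lists that rose (red, right) or fell (blue, left) in WT-LPS against WT, in percent, with the number of members at the end of each bar and the number tested in brackets. Dotted lines mark the shares over all genes tested (12.4% rose, 14.9% fell), and the glucocorticoid-responsive genes have the highest share of rises (15 of 20).

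Of 27 genes of LPS sensing and Toll-like receptor signalling, 10 rose and 0 fell (median log2 fold change 0.24). The receptor for LPS itself was not among them. Tlr4 was at 4.99, 4.59 and 5.29 TPM in WT and 1.48, 4.90 and 5.0 TPM in WT-LPS (-0.73 ± 0.46, adjusted p = 0.247), and its partner Ly96 (MD-2) at -1.0 ± 0.49 (adjusted p = 0.138). The co-receptor Cd14 rose by 2.76 ± 0.59 and Tlr2, the receptor for bacterial lipoproteins, by 4.54 ± 0.68, from 10.3 ± 1.25 to 302 ± 132 TPM. Its partner Tlr1 rose by 1.66 ± 0.40 and Tlr7, the sensor of single-stranded RNA in endosomes, by 2.70 ± 0.64. Tab3, an adaptor of the kinase TAK1, rose by 0.99 ± 0.20. Counts of members higher were 5 without WT 3 or WT-LPS 3 and 6 without WT-LPS 2. With the replicate number as a block, 1 member fell.

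Sensors of nucleic acid in the cytosol moved in both directions, with 7 of 19 higher and 3 lower (median 0.66). The kinase Ikbke rose by 3.73 ± 0.35, from 1.44 ± 0.341 to 23.9 ± 1.98 TPM, and its relative Tbk1 by 1.03 ± 0.22. Zbp1, a sensor of Z-form nucleic acid, rose by 4.13 ± 0.66, the DNA sensor Ifi204 by 3.95 ± 0.63 and the RNA sensor Ifih1 (MDA5) by 2.09 ± 0.52. The interferon-inducible factor Irf7 rose by 3.31 ± 0.63, whereas its constitutive relative Irf3 fell by 1.52 ± 0.31, from 39.3 ± 8.91 to 16.7 ± 5.25 TPM. The adaptors Tmem173 (STING) and Mavs were at -1.72 ± 0.51 and -1.23 ± 0.31. Without WT 2, WT-LPS 1 or WT-LPS 3 Tmem173 did not pass (adjusted p up to 0.0769). Without WT-LPS 3 Mavs did not pass (adjusted p = 0.0505). This count of falls became 1 without WT-LPS 3.

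Among JAK-STAT components 7 of 28 rose and 0 fell (median 0.30), led by the feedback inhibitor Socs3 (3.99 ± 0.75) and by Stat3 (1.93 ± 0.29, from 21.3 ± 2.43 to 104 ± 33.5 TPM). Socs2 rose by 1.48 ± 0.26. For rises the count was 3 without WT 3, 4 without WT-LPS 2 and 11 without WT-LPS 1. The replicate block gave 1 fall in this list, as did length offsets, a fit in which the trend of each library over transcript length is an offset. Of 29 MAP kinase genes 6 rose and 3 fell (median 0.28). Of the 6 rises, 4 were of phosphatases that switch these kinases off, among them Dusp2 (3.88 ± 0.61), Dusp1 (3.66 ± 0.70) and Dusp16 (1.98 ± 0.41), together with the kinase Map3k8 (TPL2, 3.83 ± 0.58) and the kinase Mapkapk2 (1.69 ± 0.43). The p38-beta gene Mapk11 fell by 2.34 ± 0.39 and the ERK activator Map2k2 by 1.12 ± 0.22. The number of MAP kinase genes that rose was 11 without WT 1. Regulators of AU-rich and stem-loop mRNA decay rose in 6 of 18 cases, with 0 falls (median 0.66). The endoribonuclease Zc3h12a (Regnase-1), which degrades cytokine mRNAs, rose by 4.57 ± 0.60 and its relative Zc3h12c by 3.37 ± 0.51. The number of decay regulators that rose was 2 without WT 1, WT-LPS 2 or WT-LPS 3 and 3 without WT 2 or WT 3. With length offsets 3 of them rose.

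Cytokine receptors rose in 12 of 32 cases and fell in 3 (median 0.54). The largest rises were of a pair of brakes on interleukin 1: the decoy receptor Il1r2, at 0.57, 0.44 and 0.95 TPM in WT and 28.9, 183 and 108 TPM in WT-LPS (7.08 ± 0.73), and the receptor antagonist Il1rn, a secreted ligand placed in this list (6.48 ± 0.73, from 0.447 ± 0.384 to 47.2 ± 12.6 TPM). The signalling receptor Il1r1 rose by 2.21 ± 0.39. Receptors for oncostatin M (Osmr, 3.78 ± 0.49), interleukin 15 (Il15ra, 3.15 ± 0.40), interleukin 4 (Il4ra, 2.31 ± 0.44) and the common beta chain Csf2rb (2.18 ± 0.51) also rose. Csf3r, the receptor for the granulocyte factor CSF3, fell by 2.20 ± 0.34, from 47.2 ± 11.7 to 12.7 ± 4.38 TPM, while Csf3 itself was at 0.14, 0 and 0 TPM in WT and 25.2, 35.6 and 72.5 TPM in WT-LPS (1 count in WT, ratio 559, 100.02 to 22085). Il11ra1 fell by 1.45 ± 0.31.

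Receptors for chemoattractants split, with 7 of 23 higher and 5 lower (median 0.18). Receptors for formylated bacterial peptides and complement fragments rose: Fpr1 by 5.35 ± 0.52, from 1.02 ± 0.293 to 52.2 ± 18.2 TPM, Fpr2 by 4.14 ± 0.52, C5ar1 by 3.31 ± 0.52 and C3ar1 by 2.47 ± 0.48. The leukotriene B4 receptor Ltb4r1 rose by 2.86 ± 0.64. The chemokine receptor Ccr6 fell by 5.71 ± 1.28, from 2.45 ± 2.23 to 0.0533 ± 0.0924 TPM. The fractalkine receptor Cx3cr1 fell by 1.98 ± 0.57. Without WT 2, WT-LPS 1 or WT-LPS 3 Cx3cr1 did not pass (adjusted p up to 0.0828). The number of chemoattractant receptors that fell was 2 without WT 2 or WT-LPS 1 and 3 without WT 1, WT-LPS 2 or WT-LPS 3. Of 73 tested receptors with a Gpr symbol, 8 rose and 7 fell, which is under the shares over all genes, with Gpr84, the receptor for medium-chain fatty acids, at 3.34 ± 0.46 and Gpr34 at -5.66 ± 0.70.

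Inhibitory and sialic-acid receptors had 8 of 25 members higher and 6 lower (median 0.18). Within the Siglec family, Siglec1, a sialoadhesin of activated macrophages, rose by 5.08 ± 0.66, from 0.287 ± 0.13 to 11.6 ± 8.65 TPM, whereas Siglecf and Siglecg fell by 3.10 ± 0.61 and 3.25 ± 0.67. Within the CD300 family, Cd300lf rose by 6.52 ± 0.64 and Cd300lb fell by 3.83 ± 0.85. Pirb (2.66 ± 0.49) and Pilra (2.33 ± 0.53), which carry inhibitory motifs, rose, as did the activating Pilrb1 (4.76 ± 0.99). The ligand Cd47 rose by 2.26 ± 0.36 and its receptor Sirpa fell by 1.15 ± 0.22. Cd200r1, the receptor for neuronal CD200, fell by 1.92 ± 0.40. Members of these families are similar in sequence, so reads can be split between them by the counting.

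Of 20 purine receptors and ectonucleotidases, 3 were higher and 4 lower (median -0.16), shares close to those over all genes. P2ry12 and P2ry13, the receptors for ADP, fell by 3.56 ± 0.74 and 2.74 ± 0.66, and P2ry2, a receptor for ATP and UTP, rose by 5.03 ± 0.90, from 0.197 ± 0.105 to 8.19 ± 3.91 TPM. Nt5e (CD73), which makes adenosine from AMP, rose by 1.73 ± 0.23. The number of purine genes that fell was 2 without WT 2, WT 3, WT-LPS 1 or WT-LPS 3. Among 22 ion channels described in microglia 7 rose and 4 fell (median 0.22). The potassium channel Kcna3 (Kv1.3) rose by 3.21 ± 0.61, from 0.98 ± 0.324 to 11.7 ± 4.90 TPM, the volume-regulated anion channel subunit Lrrc8a by 1.19 ± 0.19 and the calcium store sensor Stim1 by 1.08 ± 0.23. Trpm4 and Trpv2, cation channels, fell by 1.56 ± 0.37 and 1.06 ± 0.23, the former not past the threshold on the TPM scale (adjusted p = 0.0565, limma). The number of channel genes that rose was 3 without WT-LPS 2 and 4 without WT 3. The number of channel genes that fell was 2 without WT-LPS 1 or WT-LPS 3.

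Of 20 transcription factors that set microglial identity, 4 fell and 2 rose (median -0.25). Sall1, a zinc finger factor restricted to microglia among macrophages, was at 41.1, 41.3 and 34.4 TPM in WT and 11.8, 19.1 and 16.4 TPM in WT-LPS (-1.66 ± 0.33), Maf fell by 1.57 ± 0.27 and Etv5 by 1.07 ± 0.18. Tgif1, a co-repressor in TGF-beta signalling, rose by 2.11 ± 0.52. Spi1 (PU.1) was at 124, 138 and 116 TPM in WT and 132, 401 and 365 TPM in WT-LPS and did not pass (0.89 ± 0.56, adjusted p = 0.248), nor did Irf8 (-0.32 ± 0.51, adjusted p = 0.67) or Mef2c (0.02 ± 0.27, adjusted p = 0.972). For Spi1 and Irf8 the value of WT-LPS 1 was the lowest of the 3 WT-LPS libraries. The number of rises was 1 without WT 1, WT 2, WT 3, WT-LPS 2 or WT-LPS 3. It was also 1 with the replicate block and with length offsets.

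Of 15 genes of oxidant and nitric oxide production, 7 rose and 0 fell (median 1.34). Nos2, the inducible nitric oxide synthase, was at 0.040, 0 and 0 TPM in WT and 1.03, 1.17 and 1.99 TPM in WT-LPS. That is 1 read against 106 (60-fold by counts, interval 10.5 to 2392). Gch1, which makes its cofactor tetrahydrobiopterin, rose by 1.86 ± 0.41. Cybb, the catalytic subunit of the phagocyte NADPH oxidase, rose by 4.26 ± 0.64, from 2.97 ± 1.57 to 69.3 ± 44.7 TPM, and Xdh (xanthine oxidoreductase) by 3.25 ± 0.49. The mitochondrial superoxide dismutase Sod2 rose by 2.21 ± 0.38. In antioxidant defence 6 of 30 genes rose and 4 fell (median 0.11). The cystine importer Slc7a11 rose by 2.86 ± 0.40, haem oxygenase Hmox1 by 2.03 ± 0.46, glutathione reductase Gsr by 1.69 ± 0.35 and thioredoxin reductase Txnrd1 by 1.29 ± 0.25. The glutathione synthetase gene Gss fell by 0.89 ± 0.20, but not past the threshold on the TPM scale (adjusted p = 0.0738, limma). Nfe2l2, which encodes the regulator NRF2, fell by 1.18 ± 0.28. Without WT 2 Nfe2l2 did not pass (adjusted p = 0.0571). The number of antioxidant genes that fell was 1 without WT 2 and 2 without WT-LPS 3.

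In the list of arginine, tryptophan, itaconate and NAD metabolism 10 of 28 rose and 4 fell (median 0.40), and all 4 falls were of the kynurenine route from tryptophan towards NAD. Kmo, the monooxygenase at its branch point, was at 1.1, 0.64 and 0.34 TPM in WT and 0.12, 0.070 and 0.14 TPM in WT-LPS (-2.97 ± 0.69, adjusted p = 0.00746). Ido1, its first enzyme, was at 1.73, 2.69 and 1.86 TPM in WT and 0.43, 0.48 and 0.50 TPM in WT-LPS (-2.49 ± 0.62), and the later enzymes Haao and Qprt were at -2.60 ± 0.75 and -1.60 ± 0.51. Kmo and Ido1 were under 5 TPM in every library. Without WT 2, WT-LPS 1 or WT-LPS 3 Haao did not pass (adjusted p up to 0.102). Without WT 1, WT 2, WT-LPS 1, WT-LPS 2 or WT-LPS 3 Qprt did not pass (adjusted p up to 0.109). With the replicate block Qprt did not pass either (adjusted p = 0.054). This count of falls became 2 without WT 2, WT-LPS 1 or WT-LPS 3. In contrast, the salvage enzyme Nampt rose by 1.19 ± 0.21, from 15.8 ± 2.34 to 45.8 ± 10.6 TPM, and the NAD-consuming ectoenzymes Bst1 and Cd38 by 4.74 ± 0.67 and 2.05 ± 0.35. Arg1, which splits arginine, was at 0.38, 0 and 0 TPM in WT and 9.28, 26.4 and 14.7 TPM in WT-LPS (78.1-fold by counts, interval 26.5 to 380.3). Ass1, which rebuilds arginine from citrulline, rose by 1.22 ± 0.25, ornithine decarboxylase Odc1 by 1.44 ± 0.26 and its regulator Azin1 by 1.45 ± 0.29.

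Several enzymes of lipid mediator synthesis fell. Of 21 genes of prostanoid and leukotriene synthesis 5 fell and 3 rose (median -0.74). Hpgd, which inactivates prostaglandins, was at 103, 197 and 156 TPM in WT and 10.6, 16.4 and 17.3 TPM in WT-LPS (-3.77 ± 0.39, adjusted p = 6.56e-05). Ltc4s, the leukotriene C4 synthase, was at 202, 279.9 and 196 TPM in WT and 13.4, 29.9 and 33.8 TPM in WT-LPS (-3.52 ± 0.68), and Tbxas1, the thromboxane synthase, at 27.6, 35 and 32.3 TPM in WT and 3.40, 11.3 and 7.37 TPM in WT-LPS (-2.46 ± 0.51). The prostaglandin E synthesis genes Ptgs2 (COX-2) and Ptges and the receptor Ptger4 were at 1.76 ± 0.43, 1.34 ± 0.42 and 2.57 ± 0.71. Ptgs1 (COX-1) was at 77.8, 93.7 and 78.4 TPM in WT and 16.1, 83 and 57.3 TPM in WT-LPS and did not pass (-1.02 ± 0.61, adjusted p = 0.228). Without WT-LPS 3 Ptgs2 did not pass (adjusted p = 0.0517). Without WT 1, WT 3 or WT-LPS 2 Ptges did not pass (adjusted p up to 0.103). Without WT 3, WT-LPS 2 or WT-LPS 3 Ptger4 did not pass (adjusted p up to 0.0674). For rises the count was 1 without WT 3, WT-LPS 2 or WT-LPS 3.

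In lipid storage and sterol handling 7 of 30 genes rose and 6 fell (median 0.16). Ch25h, which makes the antiviral oxysterol 25-hydroxycholesterol, was at 0.28, 0.44 and 1.41 TPM in WT and 95.7, 79.3 and 137 TPM in WT-LPS (6.96 ± 0.96). The droplet coat gene Plin2 rose by 2.54 ± 0.30, from 15.2 ± 2.87 to 115 ± 36.2 TPM, and the lipase Pnpla2 by 1.58 ± 0.22, while the coat gene Plin3 fell by 1.22 ± 0.23. The triglyceride synthase Dgat1 fell by 2.30 ± 0.35, the oxysterol receptor Nr1h3 (LXR-alpha) by 1.67 ± 0.37, the sterol hydroxylase Cyp27a1 by 1.95 ± 0.39 and the fatty acid receptor Cd36 by 1.57 ± 0.36. In this list rises numbered 4 without WT 3.

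Genes of iron and metal handling rose in 9 of 22 cases and fell in 1 (median 0.50). Beside Steap4, Slc39a14 and the metallothioneins given above, the zinc exporters Slc30a1 and Slc30a4 rose by 1.11 ± 0.26 and 1.33 ± 0.22, the transferrin receptor Tfrc by 0.80 ± 0.19 and the iron regulatory protein Ireb2 by 0.83 ± 0.19. The 1 fall was the only known iron exporter, Slc40a1 (ferroportin), at 15.6, 22.2 and 20.5 TPM in WT and 1.45, 3.37 and 3.81 TPM in WT-LPS (-3.14 ± 0.64, adjusted p = 0.00391). The number of falls was 2 without WT-LPS 2.

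Of the 262 tested genes of the solute carrier list (symbols of the form Slc, number, a, number), 44 rose and 43 fell (16.8% and 16.4%, median 0.08). Amino acid transporters were found in both directions. Those that rose include Slc7a1 for arginine (1.85 ± 0.35), both chains of the large neutral amino acid exchanger, Slc7a5 (1.57 ± 0.31) and Slc3a2 (1.14 ± 0.24), and the lysosomal carrier Slc36a4 (2.15 ± 0.37). Those that fell include the proline and glycine carriers Slc36a2 (-2.71 ± 0.61), Slc6a7 (-1.23 ± 0.28) and Slc6a9 (-0.87 ± 0.20), the GABA carrier Slc6a13 (-1.49 ± 0.31), the glutamine carrier Slc38a3 (-0.92 ± 0.24) and Slc7a4 (-1.12 ± 0.36). Without WT 2 Slc38a3 did not pass (adjusted p = 0.0595). Without WT 1, WT 3, WT-LPS 1, WT-LPS 2 or WT-LPS 3 Slc7a4 did not pass (adjusted p up to 0.11). On the TPM scale Slc6a7, Slc6a9, Slc38a3 and Slc7a4 did not pass (adjusted p = 0.0838, 0.121, 0.118 and 0.263, limma). Slc15a3, a histidine and peptide carrier of endolysosomes, rose by 2.62 ± 0.64. Slc10a6, a member of the family named for bile acid carriers, rose by 6.13 ± 0.71, from 0.0433 ± 0.0751 to 4.05 ± 0.715 TPM. Among sugar transporters, Slc2a1 (GLUT1) rose by 1.37 ± 0.21, whereas Slc2a12 fell by 2.74 ± 0.29 beside Slc2a5. The nucleoside and monoamine carrier Slc29a4 fell by 1.95 ± 0.22, the organic anion carriers Slc22a6 and Slc22a8 by 2.66 ± 0.42 and 3.19 ± 0.45 and the folate carrier Slc46a1 by 1.59 ± 0.29. Slc22a6, Slc22a8 and Slc4a5 (-1.68 ± 0.42) are known from choroid plexus or meninges. Slc6a13 is itself 1 of the 8 markers of fibroblasts and meninges used here. In the same libraries 7 of 7 choroid plexus and ependyma markers fell. Of the 8 fibroblast and meningeal markers 3 fell and 1 rose. The part of these cells was not tested.

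Proteases and inhibitors of the matrix rose in 12 of 33 cases and fell in 2 (median 0.61). Beside Mmp3, the membrane protease Mmp14 rose by 3.49 ± 0.56, from 10.1 ± 3.79 to 146 ± 58 TPM, the macrophage elastase Mmp12 by 4.23 ± 1.00 and Mmp19 by 3.05 ± 0.47. The inhibitors Timp1 and A2m rose by 3.55 ± 0.48 and 2.20 ± 0.36. In the plasminogen system the receptor Plaur rose by 4.62 ± 0.71 and the activator Plat by 1.1 ± 0.23, whereas the urokinase gene Plau fell by 2.26 ± 0.46, from 10.7 ± 2.84 to 2.86 ± 0.908 TPM. Growth and trophic factors had 7 of 30 members higher and 5 lower (median -0.30). Rises included Lif (3.82 ± 0.84), Osm (2.93 ± 0.60), Hgf (2.36 ± 0.58) and Csf1 (1.02 ± 0.21), and falls included Igf2 (-1.64 ± 0.25), Pdgfb (-1.45 ± 0.34) and Vegfb (-0.89 ± 0.18), which did not pass on the TPM scale (adjusted p = 0.0583, limma). Igf2 is also a meningeal and choroid plexus transcript.

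Regulators of cell death rose without any call downwards, in 11 of 29 cases (median 0.81). Both sides were represented. Among protective members the Bcl2a1 copies Bcl2a1a and Bcl2a1d rose by 2.76 ± 0.52 and 4.19 ± 0.74, Mcl1 by 1.48 ± 0.37, Bcl2l1 (BCL-XL) by 0.81 ± 0.18 and Birc3 (cIAP2) by 2.70 ± 0.59. Among those that promote death, the receptor Fas rose by 2.96 ± 0.45, from 1.95 ± 0.507 to 19.3 ± 4.20 TPM, and the necroptosis kinase Ripk3 by 2.33 ± 0.55. The Bcl2a1 copies are nearly identical, so the split of reads among them is uncertain. Counts of members higher were 7 without WT 3. With the replicate block 1 of the 29 fell. Inflammasome and pyroptosis genes had 4 of 23 members higher and 2 lower (median -0.05), with the sensor Nlrp3 at 3.78 ± 0.66, from 5.79 ± 0.965 to 104 ± 83.9 TPM. The number of inflammasome genes that rose was 2 without WT 1, WT 3, WT-LPS 2 or WT-LPS 3. The number of inflammasome genes that fell was 0 without WT 3 or WT-LPS 1 and 1 without WT-LPS 3. Length offsets left 1 fall. Of 19 p53 target and stress arrest genes 6 rose and 0 fell (median 0.71). Beside Cdkn1a, they include Gadd45b (1.89 ± 0.33), Trp53inp1 (1.72 ± 0.34), Sesn2 (1.52 ± 0.41) and Mdm2 (0.71 ± 0.18), the ligase that degrades p53.

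Glucocorticoid-responsive genes had the highest share of rises of the lists described here. Of 20 tested, 15 rose and 1 fell (median 1.91), and 13 to 16 rose when 1 library was left out. Fkbp5, a co-chaperone of the glucocorticoid receptor and its classic target, was at 15.4, 33.8 and 32.5 TPM in WT and 118, 191 and 180.2 TPM in WT-LPS (2.19 ± 0.37, adjusted p = 0.00138). Sgk1, a kinase induced by corticosteroids, was at 96.9, 87.2 and 103 TPM in WT and 377, 441 and 427 TPM in WT-LPS (1.76 ± 0.21), and Tsc22d3 (GILZ) at 79.9, 96.7 and 70.5 TPM in WT and 207, 246 and 353 TPM in WT-LPS (1.34 ± 0.29). TPM of these genes was higher in all 3 WT-LPS libraries than in any WT library, as it was for 27.4% of all genes tested. Map3k6 rose by 4.94 ± 0.53, from 0.827 ± 0.63 to 30.5 ± 12.4 TPM, Angptl4 by 2.36 ± 0.39, Ddit4 by 2.11 ± 0.23, Errfi1 by 1.93 ± 0.22 and Klf9 by 1.89 ± 0.36. Cdkn1c (p57) was the 1 member that fell, at 24.8, 27 and 22.5 TPM in WT and 4.70, 4.40 and 5.24 TPM in WT-LPS (-2.75 ± 0.33). The receptor gene Nr3c1 did not pass (0.25 ± 0.25, adjusted p = 0.483). Several members (Lcn2, Dusp1, Mt1, Mt2 and Zbtb16) are also known targets of other stress or cytokine pathways.

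Genes of the circadian clock rose in 7 of 21 cases and fell in 0 (median 0.53). Nfil3, a repressor that opposes D-box activators, rose by 2.67 ± 0.37, from 9.03 ± 4.94 to 70.3 ± 25.2 TPM, Cry1 by 1.65 ± 0.25, Cry2 by 1.02 ± 0.20, Bhlhe40 by 1.27 ± 0.19 and Nr1d1 (REV-ERB-alpha) by 0.73 ± 0.19. Per1, also a glucocorticoid target, was at 20.8, 30.0 and 72.1 TPM in WT and 78.2, 109 and 127 TPM in WT-LPS. In the main fit Per1 did not pass (1.00 ± 0.37, adjusted p = 0.0574). It passed without WT 3 or WT-LPS 1, with the replicate block (adjusted p = 0.00943), in DESeq2 (0.0292) and with no filter (0.0405). On the TPM scale Per1 passed too (adjusted p = 0.00696 with a pseudocount of 1 and 0.00735 with 0.1, limma). Without both replicates numbered 1 its adjusted p was 0.0423. The labels give no time of day for the collections. Among histone and DNA modifying enzymes 10 of 43 rose and 3 fell (median 0.33). The DNA demethylase Tet2 rose by 2.17 ± 0.32, from 3.25 ± 1.92 to 18 ± 5.76 TPM, the histone methyltransferase Setdb2 by 2.13 ± 0.26, the acetyltransferase Crebbp by 1.67 ± 0.29, the deacetylase Hdac4 by 1.67 ± 0.38 and the demethylase Kdm6a by 1.26 ± 0.29. Hdac5 fell by 1.22 ± 0.29. The number of modifying enzymes that fell was 1 without WT 3 or WT-LPS 3.

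Heat shock genes had 3 of 29 members higher and 6 lower (median 0.22). Hspa1a fell by 2.84 ± 0.52 together with Hspa1b, the co-chaperone Chordc1 by 1.30 ± 0.22 and the regulator Hsf1 by 1.32 ± 0.30, while the small heat shock protein Hspb1 rose by 1.08 ± 0.21. On the TPM scale Hsf1 did not pass (adjusted p = 0.0678, limma). The number of heat shock genes that rose was 6 without WT 1. The replicate block gave 5. Hspa1a and Hspa1b are near-identical copies and share reads. In the secretory pathway 6 of 35 genes rose and 8 fell (median 0.00). The stress sensors Ern1 (IRE1-alpha) and Atf6 rose by 1.87 ± 0.39 and 1.76 ± 0.29, and the folding factors Creld2 and Pdia4 fell by 1.39 ± 0.27 and 1.11 ± 0.23. The number of secretory genes that fell was 3 without WT-LPS 3, 4 without WT 2 or WT 3 and 5 without WT 1 or WT-LPS 1. With length offsets 4 fell. Of 20 aminoacyl-tRNA synthetase genes, 6 rose and 1 fell (median 0.27), and in the tricarboxylic acid cycle 4 of 27 rose and 2 fell (median 0.20). The number of synthetase genes that rose was 2 without WT 2, WT 3 or WT-LPS 2. The number of cycle genes that rose was 0 without WT 3, 1 without WT-LPS 3 and 2 without WT 2 or WT-LPS 2. The number of cycle genes that fell was 1 without WT 2, WT 3 or WT-LPS 3. With length offsets 1 gene of the cycle fell.

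Sets of small, abundant housekeeping proteins had more falls than rises. Of 78 cytosolic ribosomal protein genes, 21 fell and 0 rose (median -0.78), and 76 had a fold change below 0. Of 86 subunits of respiratory complexes I to V, 24 fell and 1 rose (median -0.38), and of 77 genes of mitochondrial ribosomal proteins 21 fell and 2 rose (median -0.27). Rps29 was at 11832, 22502 and 15601 TPM in WT and 6470.1, 9687 and 7346 TPM in WT-LPS (-1.48 ± 0.33) and Rps21 at 7907, 14390.4 and 10325 TPM in WT and 4785, 6669.8 and 5449.6 TPM in WT-LPS (-1.34 ± 0.31), and neither passed with length offsets (adjusted p = 0.226 and 0.379). Transcripts of these sets are short. Relative to the median gene their median effective length, taken from the ratio of counts to TPM, was 0.172 for ribosomal proteins, 0.163 for the respiratory complexes and 0.303 for mitochondrial ribosomal proteins. The number of ribosomal protein genes that fell was 5 without WT 2, 7 without WT-LPS 3, 10 without WT-LPS 1, 13 without WT 3 and 54 without WT 1. With the replicate block 47 ribosomal protein genes fell and 3 respiratory complex subunits rose. The number of respiratory complex subunits that fell was 8 without WT-LPS 3, 10 without WT 2, 14 without WT 1 and 15 without WT-LPS 2. The number of mitochondrial ribosomal proteins that fell was 10 without WT-LPS 3.

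Short transcripts as a whole were lower and long ones higher after LPS. In 5 equal bins of 2969 genes from the shortest to the longest, 6.03, 10.04, 12.9, 15 and 19.7% of genes rose and 26.7, 18.0, 13.5, 11 and 6.80% fell. Median log2 fold changes were -0.42, -0.15, 0.02, 0.11 and 0.26. Genes of other kinds with lengths in the interquartile range of the ribosomal protein genes (721 genes, relative length 0.0993 to 0.263) had a median of -0.63, and 36.8% of them fell, against 26.9% of the ribosomal protein genes. The trend was graded over libraries. The median deviation of the shortest bin from the gene means was 0.19, 0.26 and 0.09 in WT 1, 2 and 3 and -0.07, -0.19 and -0.40 in WT-LPS 1, 2 and 3. For the longest bin it was -0.13, -0.17 and -0.09 in WT 1, 2 and 3 and 0.03, 0.06 and 0.24 in WT-LPS 1, 2 and 3. WT-LPS 3 was the most displaced and WT-LPS 1, which had the fewest microglial transcripts, the least of its group. In the knockout, the same 5 bins had median LPS responses of 0.02, 0.03, 0.03, -0.00 and -0.04, and the difference between the genotypes was not tested. The cause of the trend was not tested.

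**Figure D5:**
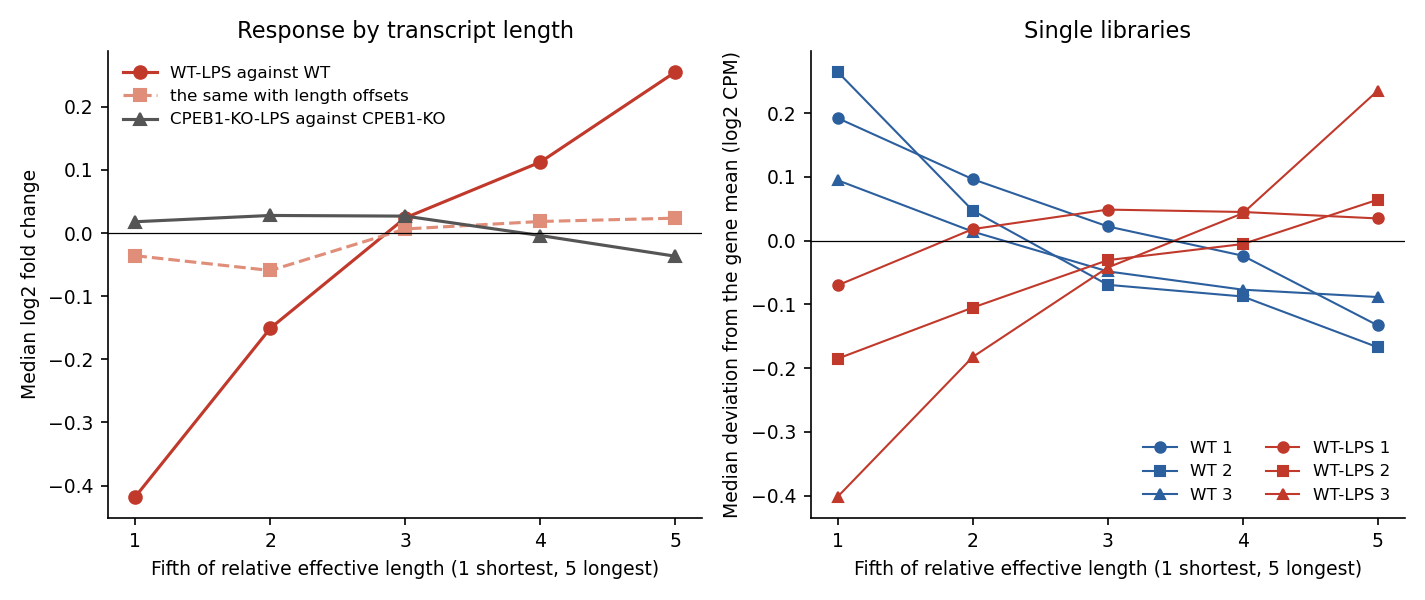
Left, median log2 fold change (vertical axis) in 5 equal bins of relative effective length (horizontal axis) for WT-LPS against WT (red circles), for the same comparison with length offsets (light red squares) and for CPEB1-KO-LPS against CPEB1-KO (grey triangles). Right, median deviation of each WT (blue) and WT-LPS (red) library from the gene means (log2 CPM) in the same bins. The red line climbs from -0.42 to 0.26, the other lines on the left stay between -0.06 and 0.03, and WT-LPS 3 spans the widest range on the right. The line with length offsets is near 0 by construction, because the offsets take out the trend over length.

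With length offsets, a step chosen after the data had been seen, 3705 genes passed (1685 higher and 2020 lower), and 3269 of them had also passed without it. These offsets were fitted to each library with the LPS difference left in. They therefore remove any difference between the groups that follows length, so the loss of falls among short genes is built in. Ribosomal protein genes then had 2 falls and 0 rises (median -0.18), respiratory complex subunits 4 falls and 2 rises (median 0.11) and mitochondrial ribosomal proteins 6 falls and 7 rises (median 0.05). On the authors' TPM scale, taken relative to its shift of 0.28, these 3 medians were -0.64, -0.34 and -0.20. Proteasome genes, which are also short (relative length 0.371), went the other way: 8 of 30 rose and 0 fell (median 0.31), and 15 rose with length offsets (median 0.64). They include the regulatory particle subunits Psmd11 (0.97 ± 0.19), Psmd14 (0.85 ± 0.18) and Psmd1 (0.80 ± 0.19). The number of proteasome genes that rose was 3 without WT 3 or WT-LPS 2. Counts of the glucocorticoid-responsive genes (15 rose, 1 fell), oxidant production (7 and 0) and death regulators (12 and 0) with offsets were at or near those without them.

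Counted by shared symbol stem, 192 families had at least 10 tested members. In 5 of them at least 50% rose: the guanylate-binding proteins Gbp (8 of 10), the chemokines Cxcl (7 of 10) and Ccl (8 of 16), the Toll-like receptors (5 of 10) and the proteasome Psmd genes (7 of 14). Of the Ccl genes 3 fell (Ccl27b, Ccl27a and Ccl6). Of the Toll-like receptors 1 fell, Tlr12, which was not in the list of LPS sensing above. In 3 at least 50% fell: the carbonic anhydrases Car (6 of 12), the histone genes Hist (6 of 11) and the complex I subunits Ndufa (7 of 14). Histone transcripts mostly lack poly(A) tails and are poorly covered by this protocol. Along the chromosomes, 5 runs of at least 4 neighbouring tested genes rose together and 4 fell together. The run on chromosome 8 (94172664 to 94527272 of mm10) held Mt2, Mt1, Nup93, Herpud1 and Nlrc5. Those on chromosomes 3 (142493978 to 142638008) and 5 (105077630 to 105293698) held Gbp genes, that on chromosome 11 (83028130 to 83190216) the Slfn genes and that on chromosome 15 (74979534 to 75111970) Ly6i, Ly6a, Ly6c1 and Ly6c2. Without WT-LPS 3 Ly6c1 did not pass (adjusted p = 0.0526). The Gbp, Slfn and Ly6 runs are tandem copies that can share reads. The longest run of falls, on chromosome 5 (138255482 to 138280005), held 5 genes, among them Gal3st4, Gpc2 and Lamtor4.

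Rises differed in how evenly the 3 treated animals showed them. Of 1105 genes that rose and reached at least 20 TPM, 546 (49.4%) had their lowest WT-LPS value in WT-LPS 1, 433 in WT-LPS 2 and 126 in WT-LPS 3. All 10 genes with the widest spread of log2(TPM + 1) over the WT-LPS libraries were lowest in WT-LPS 1. Klf4, a zinc finger factor of macrophages, was at 5.04, 12.9 and 9.13 TPM in WT and 12.1, 92.8 and 138 TPM in WT-LPS, so that WT-LPS 1 lay within the WT range, and Tgm2 (transglutaminase 2), at 18, 25.5 and 22.5 TPM in WT and 21.4, 127 and 114 TPM in WT-LPS, did the same. Rgs1, a brake on chemokine receptors, was at 23, 26.2 and 21.6 TPM in WT and 76.9, 465 and 617 TPM in WT-LPS, Dusp1 at 68.4, 69 and 74.2 TPM in WT and 256, 1359.5 and 1824 TPM in WT-LPS and Atf3 at 10.7, 14.3 and 9.28 TPM in WT and 36.5, 141 and 286 TPM in WT-LPS. Without WT 1, WT 3 or WT-LPS 3 Klf4 did not pass (adjusted p up to 0.0716). Without WT 1, WT 2, WT 3, WT-LPS 2 or WT-LPS 3 Tgm2 did not pass (adjusted p up to 0.183). With the replicate block the adjusted p of Tgm2 was 0.0627. At the other end, Rcl1, a factor of ribosomal RNA processing, was at 14.9, 9.30 and 8.66 TPM in WT and 28.4, 28.3 and 28.1 TPM in WT-LPS (1.03 ± 0.21), Pik3ip1, an inhibitor of PI3 kinase, at 26.6, 14 and 26.4 TPM in WT and 72.2, 72.2 and 73.1 TPM in WT-LPS (1.38 ± 0.19) and Rrs1, a ribosome assembly factor, at 21.2, 11.5 and 7.33 TPM in WT and 62.8, 61 and 62.3 TPM in WT-LPS (1.88 ± 0.32).

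Some abundant genes were bounded close to no change. Among 1127 genes above 100 TPM in both groups, Psmc3, an ATPase of the proteasome, had the narrowest limit, a log2 change of 0.03 ± 0.17 with an interval of 2 SE from -0.31 to 0.36. Flot1, a membrane scaffold, was at 0.06 ± 0.16 (-0.27 to 0.38) and Ilk, a kinase at integrin contacts, at -0.02 ± 0.19 (-0.40 to 0.36). In TPM, which carries the shift of 0.28, Psmc3 was at 194, 138 and 161 TPM in WT and 234, 198 and 205 TPM in WT-LPS.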

How the data were processed

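RNA from microglia of 12 mice, 1 animal per library, was sequenced by the authors. The deposited expected counts and TPM of 23845 genes were made with cutadapt and RSEM on mm10, per the submitters' processing notes. For these tools the sources used here give no version. The authors' TPM divides counts by transcript length and library total, so a few abundant genes shift all others. Expected counts (3.69 to 4.66% of values not whole) were rounded, and 27 symbols changed into dates were restored. Replicates are separate animals.

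The 15295 genes kept by filterByExpr were fitted over all 4 groups (12 libraries, 8 residual degrees of freedom, TMM scaling) in edgeR 4.0.16 (R 4.3.3) with the quasi-likelihood test, contrast WT-LPS minus WT. Values after ± are standard errors for log2 fold changes and SD over 3 libraries for TPM. Calls used a Benjamini-Hochberg adjusted p under 0.05, the adjusted p printed throughout. Alternatives used DESeq2 1.42.0, limma 3.58.1 on log2(TPM + 1) and log2(TPM + 0.1), and other filters and scalings. Others left out single libraries or both replicates numbered 1, or used a replicate block or length offsets. The length offsets were added after seeing the data. Summed counts of 5.02 to 12.9 M per library limit genes at few reads. A gene with 0 counts in a group was set to 3 counts for a bound, and ratios from 1 to 3 counts have exact 95% intervals.

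Same-numbered WT and WT-LPS libraries had correlated deviations from their group means (0.362, 0.137 and 0.166, each highest with its own number). Deviations from a mean of 3 libraries depend on each other, so these matches cannot establish a pairing. The labels state none.

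Members and gene lists were chosen with earlier results of these data known. Genes were named by rule: the largest and most certain changes with no overlap in TPM, members with the smallest p of each list, the least moved and the most and least even genes, families with at least 50% of members called one way, and runs of at least 4 neighbours. Further list members named beside these were chosen after their values were seen. Positions are from GENCODE on mm10.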

Additional observations from a re-analysis of the deposited data

How the results depend on the processing

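The number of genes past the threshold (4185, with 1900 higher and 2285 lower) stayed within 1.5 times under RLE scaling, DESeq2, no filter, a CPM filter and length offsets. It was 2592 (1208 higher and 1384 lower) when the 6 libraries were fitted alone and 1720 (751 and 969) in a test against 1.5-fold. In limma on TPM, 3380 genes were higher and 1087 lower with a pseudocount of 1, and 3372 and 1056 with 0.1. The cause was not tested. Leaving out 1 library gave 2714 to 4488 genes, 1292 to 2135 higher and 1422 to 2426 lower, with the lowest counts without WT-LPS 3. With the replicate block, which pairs libraries by number, 4626 genes passed (2156 higher and 2470 lower), and 3902 of them had passed without it. Apart from the calls given beside their results, the block changed no call of a named gene. No named gene changed sign and passed in the other direction under any of the 17 alternatives. Of the 252 named genes, 205 kept their call in every one of the 17 alternatives that tested them, and the test against 1.5-fold ended 32 of the calls. Fitting the 6 libraries alone ended 8 calls, among them those of Tfrc, Mdm2, Nr1d1 and Psmd1. Leaving out both replicates numbered 1, the highest of their groups in neuronal markers, ended 12 calls. Among these were Kmo, Cd300lb, Mmp12, Pdgfb, Slc4a5 and Nr1d1 (adjusted p = 0.0604, 0.0508, 0.0584, 0.0561, 0.0888 and 0.0731). With 3 animals a group, moderate changes can be missed, and low read numbers limit the ratios of genes with few counts in WT.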
